A study of Mus musculus with 8 samples.

Results

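The 35 genes described here encode the Bcl2 family of proteins, caspases and the proteins that regulate them. They were taken from a set of gene symbols, and their probes were found by the RefSeq accession that each probe carries. The rule for the set used no measured value, but the set was drawn up with earlier results of these data known. The p53 target genes of apoptosis were left out of it. All 35 had a probe well above background, out of 22911 named genes on the array and 16013 genes that could be tested. Gene expression was measured on 8 2-colour Agilent arrays in whole mouse kidneys at embryonic day 14.5. The mutant kidneys had lost Mdm4, which encodes an inhibitor of p53, through Cre recombinase made from a Hoxb7Cre transgene, and the other group is labelled wild type. There were 4 wild-type and 4 mutant RNAs, set against each other as 4 pairs. Each pair was hybridised on 2 arrays with exchanged dyes, which gives n = 4 pairs, and the arrays are called Cy5-mutant or Cy3-mutant by the dye of the mutant RNA. Hoxb7 drives Cre in the ureteric bud and the collecting ducts that grow from it, so most cells of a whole kidney lie outside the lineage that loses Mdm4. Whether an RNA came from 1 embryo or a pool, and which transgenes or floxed alleles the wild-type embryos carried, is not stated in the labels. The p-values therefore rest on how these 4 pairs vary, part of which may be technical.

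Bcl2 proteins decide whether the outer membrane of the mitochondrion stays closed. BH3-only proteins sense stress and bind the anti-apoptotic members, which releases the pore formers that let cytochrome c out. Cytochrome c then assembles the apoptosome, which activates caspase-9 and through it further caspases. A second route runs from death receptors through FADD and caspase-8, and inhibitor of apoptosis proteins (IAPs) restrain both. In the developing kidney apoptosis removes surplus mesenchymal and epithelial cells, and p53 can start it by transcribing several BH3-only genes. The comparison asks how transcripts of this machinery differ when Mdm4 is lost from the ureteric lineage.

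Across the arrays 57.9% to 67.1% of the 62976 spots in a channel were well above background, with 0 saturated. The brightest probe of each of the 35 genes was well above background in 8 of 8 channels of both genotypes. A list of 12 kidney genes was measured in full, all 12 well above background in every channel, with summed log2 levels of 16.99 to 17.07 in wild type and 16.94 to 17.12 in the mutant. Mdm4 had a mean log2 ratio of mutant over wild type of -0.18 ± 0.07 (SE, limma adjusted p = 0.471). Its probes cannot be placed against the deleted part, so this value does not check the labels. Of 14 ureteric markers 14 had a mean ratio below 0, with list means of -0.65, -0.20, 0.05 and -0.47 in pairs 1 to 4. Of these markers 5 were lower in all 4 pairs, and 8 were above 0 in pair 3. In these whole-organ RNAs, fewer cells of a type and less RNA per cell cannot be told apart. Sex-linked transcripts differed within the pairs, in the opposite direction in pair 3 from the other pairs. Eif2s3y was at 3.91, 2.26, -2.02 and 4.09 in pairs 1 to 4, and Xist at -2.71, -0.23, 2.48 and -2.80. Sex and genotype thus cannot be fully told apart in these 4 pairs.

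None of the 35 genes passed the test, and most differed little between mutant and wild type. Ratios below are log2 of mutant over wild type, so that 0.22 is 1.17-fold, and each error is the standard error of limma's fit over 4 pairs. By limma, with p adjusted over all 16013 genes, 0 of the 35 members were below 0.05, as were 0 of all genes (0%). Among the members the smallest adjusted p was 0.425. Without adjustment 1123 genes of the whole table were higher and 576 lower at p under 0.05. Of the members 3 were higher at that level, Casp12, Birc2 and Bcl2l11, against 7.01% of all genes, and 1, Bok, was lower, against 3.6%. As shares of the members these are 8.57% and 2.86%. Counted by sign, 6 members, or 17.1%, were higher in all 4 pairs, against 12.1% of all genes, and they were Casp12, Birc2, Bnip3l, Birc3, Casp9 and Ripk1. Only Bok, 2.86% of the members, was lower in all 4 pairs, against 7.84% of all genes.

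The members lay close to the rest of the transcriptome. Of the 35 members, 22 had a mean above 0 and 13 below. That is 62.9% above 0, against 53.9% of all genes. With median centring of the arrays in place of loess the split was 32 and 3, or 91.4% above 0 against 81.8% of all genes. The median of all genes then moved to 0.14 from 0.01. The split was 16 and 19 when the ratios of each pair were centred on their own median. The shares above 0 were then 45.7% of the members and 48.8% of all genes. The median ratio of the members was 0.01, the same as that of all genes. The median size of the ratio, without its sign, was 0.06 for the members and 0.07 for all genes. Only Bak1 had a mean beyond 0.25 in either direction. Wild-type and mutant levels overlapped for all 35 members, and 4.82% of all genes had levels that did not overlap. Among 35 genes so small a share does not set the members apart.

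**Figure D1:**
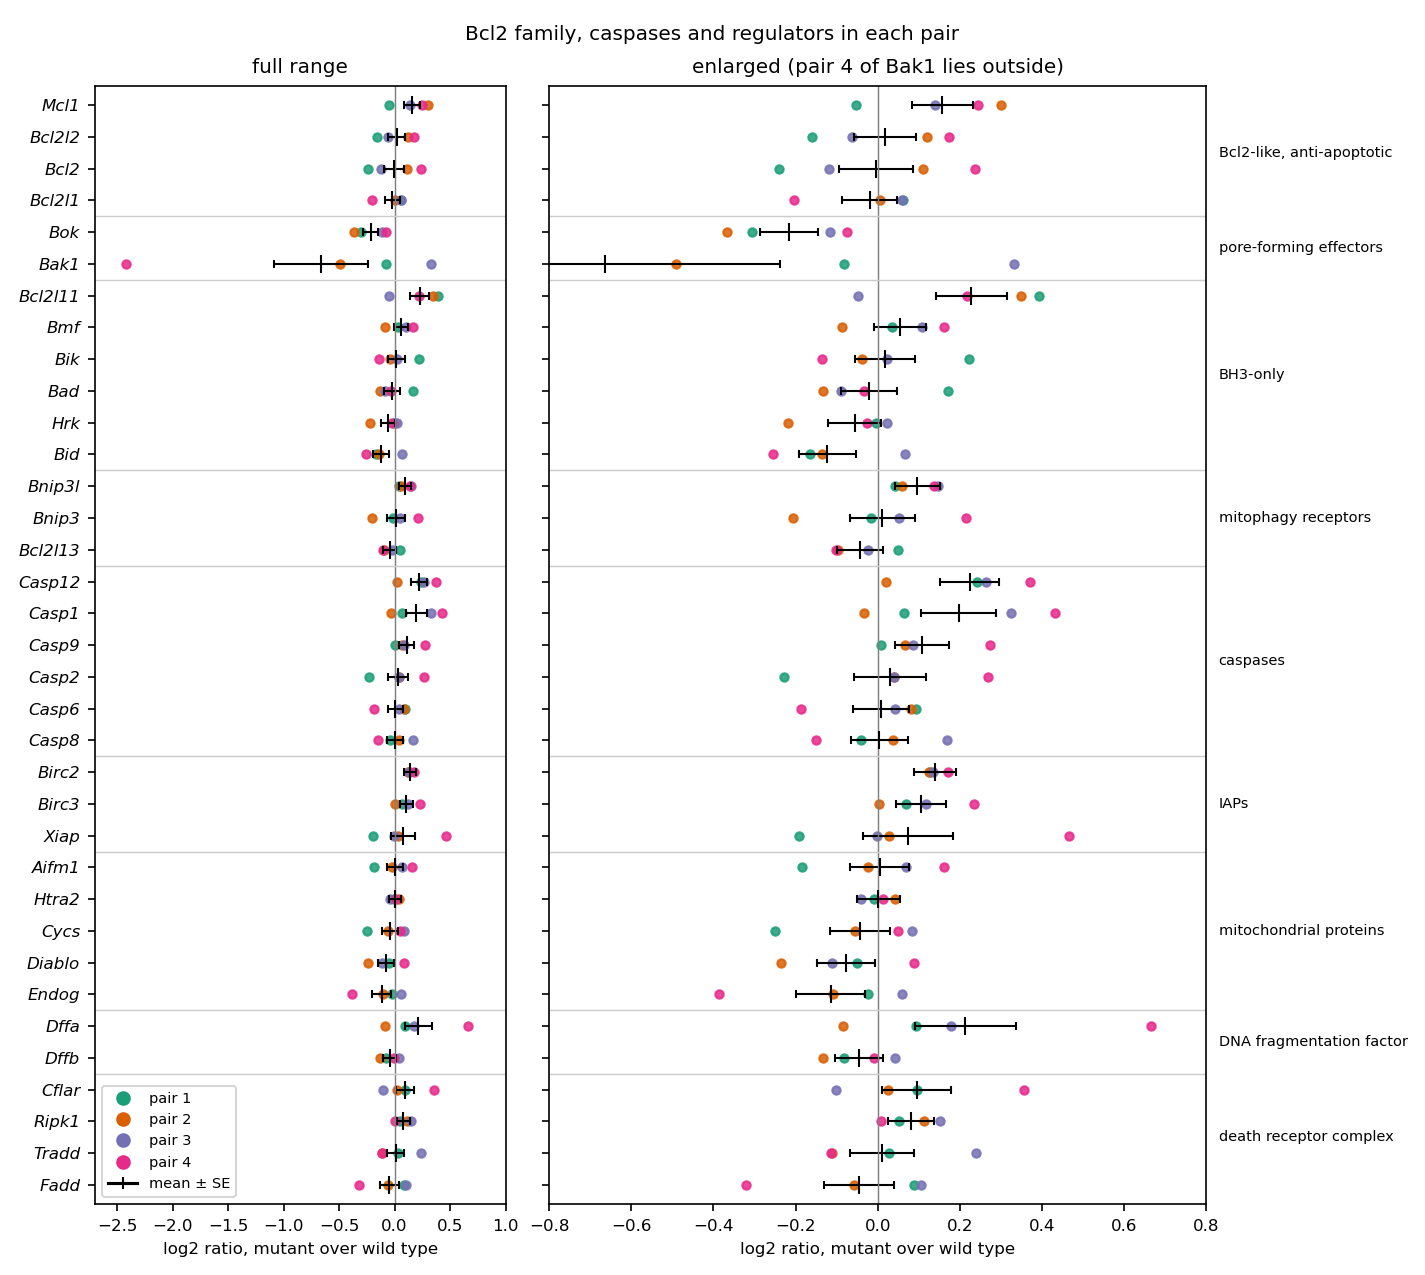
Log2 ratio of mutant over wild type (x axis) of each of the 35 genes (y axis, grouped by role) in each of the 4 pairs (coloured points), with the mean ± SE of limma's fit in black, over the full range on the left and enlarged on the right. Most points lie near 0, and the point of Bak1 in pair 4, at -2.42, stands far from the others.

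Pair 4 held the widest values. The median size of a member's ratio was 0.08, 0.09 and 0.09 in pairs 1, 2 and 3 and 0.19 in pair 4. For all genes the same medians were 0.10, 0.09, 0.11 and 0.16. Pair 4 was the pair farthest from a gene's median for 15 members, or 42.9%, against 36.4% of all genes. Pair 4 was also the highest pair for 16 members and the lowest for 11.

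The pore-forming effectors open the outer mitochondrial membrane, and both members measured here had a mean below 0. Bax, an effector gene left out of the members as a p53 target, was at 0.11, -0.19, -0.15 and -0.58, a mean of -0.20. Bok encodes a Bcl2 relative with effector activity that can act without the classical activators. Its log2 level was 12.55, 12.92, 12.58 and 12.51 in the wild-type RNAs and 12.25, 12.56, 12.47 and 12.44 in the mutant ones. Bok was lower in the mutant of every pair, by most in pairs 1 and 2, although the levels of the genotypes overlapped. The ratios were -0.30, -0.37, -0.12 and -0.08 in pairs 1 to 4, a mean of -0.22 ± 0.07 or 0.861-fold (limma adjusted p = 0.425). On the Cy5-mutant arrays they were -0.49, -0.69, -0.37 and -0.36. On the Cy3-mutant arrays they were -0.12, -0.05, 0.13 and 0.21. The direction of Bok thus held in all pairs only on the former, and the mean of the latter was 0.04. Bok has 1 probe on the array, so no second probe bears on this.

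The 250 bases before the RefSeq start of Bok are shown because Bok was the only member lower in all 4 pairs. They lie at chr1:93685325-93685574 (GRCm38.p6, plus strand), 5′ to 3′, and capitals mark the GC box GGGCGG on either strand.
Bok: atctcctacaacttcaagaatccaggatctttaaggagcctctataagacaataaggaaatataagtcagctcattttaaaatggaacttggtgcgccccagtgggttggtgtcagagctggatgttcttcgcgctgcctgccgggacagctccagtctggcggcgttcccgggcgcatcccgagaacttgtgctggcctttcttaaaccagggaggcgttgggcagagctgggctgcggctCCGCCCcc
The window holds 1 GC box, close to the start. RefSeq promoter windows of this length were found for 31 of the 35 genes, 41 windows in all, and 24 of them, or 58.5%, held GGGCGG, against 32.7% of all 32851 windows. The member windows were also richer in G and C, with a median of 60.4% against 52.4%, and this motif consists of these letters. The hypoxia core ACGTG was in 17.1% of member windows and 16.6% of all, and the TATA motif TATAAA in 4.88% and 12.4%. A p53 half-site occurred in 1 member window, of Bmf (2.44% against 7.13% of all), and an NF-kB site in 2, of Aifm1 and Bcl2l1 (4.88% against 7.25%). The FoxO motif TGTTTAC was in 1 member window, of Bcl2l11, against 3.17% of all. Both strands were read, and the GC box was the only one of these motifs marked in capitals.

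Bak1 encodes BAK, the pore former that sits in the outer membrane of resting cells. Its log2 level was 13.56, 13.57, 12.72 and 13.07 in the wild-type RNAs and 13.48, 13.08, 13.05 and 10.65 in the mutant ones. The mutant RNA of pair 4 stood far below the other 7 RNAs, which lay between 12.72 and 13.57. The ratios were -0.08, -0.49, 0.33 and -2.42, a mean of -0.66 ± 0.43 (SD 1.22, limma adjusted p = 0.598). Without pair 4 the mean was -0.08. Both arrays of pair 4 gave the low value, -2.49 on the Cy5-mutant and -2.34 on the Cy3-mutant array. Counting Bak1 itself, 17 of the 16013 genes had a ratio as low in pair 4. By the same count 72 genes had a range over the pairs as wide. The 10 tested genes nearest to Bak1 on chromosome 17 lay between -0.35 and 0.04 in pair 4. Bak1 too is measured by 1 probe.

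**Figure D2:**
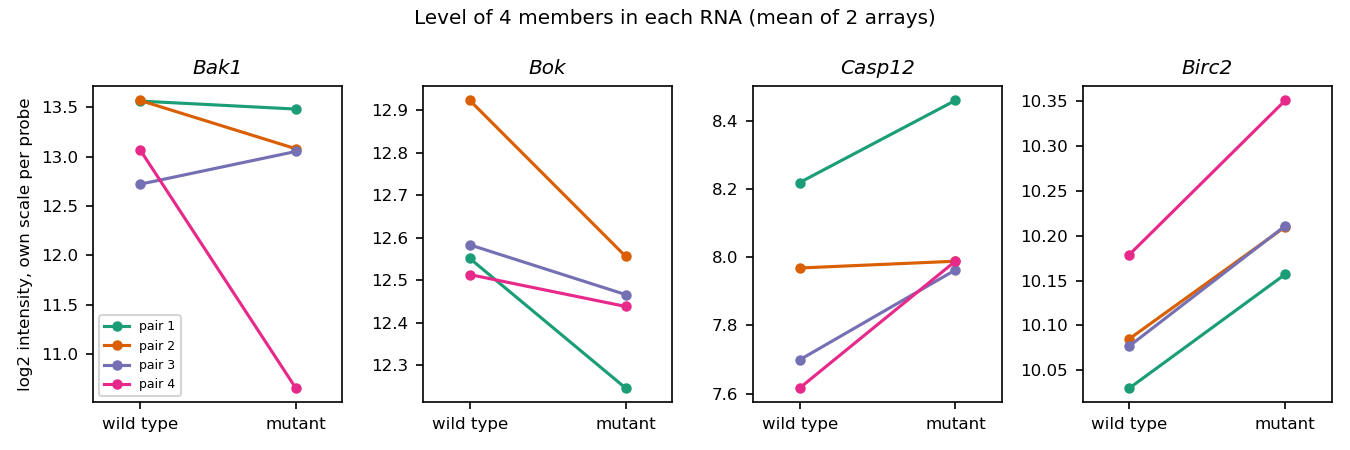
Log2 intensity (y axis, a separate scale for each probe) of Bak1, Bok, Casp12 and Birc2 in the wild-type and mutant RNA of each pair, joined by a line; each point is the mean of 2 arrays. The Bak1 level of the mutant RNA in pair 4 is 10.65, while the lines of Birc2 run upward in parallel in all 4 pairs.

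Among the 4 anti-apoptotic Bcl2 genes, whose products hold BAX, BAK and BH3-only proteins in check, 2 had a mean above 0 and 2 below. Mcl1 encodes a short-lived guardian protein that many tissues need during development. Its ratios were -0.05, 0.30, 0.14 and 0.24, a mean of 0.16 ± 0.07 (limma adjusted p = 0.512), above 0 in 3 of 4 pairs and on 7 of 8 arrays. Bcl2, which protects metanephric cells from apoptosis in the mouse embryo, was at -0.24, 0.11, -0.12 and 0.24, so that its pairs were evenly divided and its mean was -0.0036. Its other probe was at 0.08, 0.23, -0.24 and -0.26. The 2 probes of Bcl2 had opposite signs in pairs 1 and 4. Bcl2l1, which encodes BCL-XL, was at 0.06, 0.0046, 0.06 and -0.20, with a mean of -0.02 ± 0.07. All 5 of its probes had a mean below 0, from -0.17 to -0.02, and each of them was below 0 in pair 4. Bcl2l2, which encodes BCL-W, was at -0.16, 0.12, -0.06 and 0.17, and like Bcl2 it was below 0 in pairs 1 and 3 and above 0 in pairs 2 and 4.

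The 6 BH3-only genes that are not classical p53 targets did not move together, with 3 means above 0 and 3 below. Bcl2l11 encodes BIM, which binds all anti-apoptotic members. It had the highest mean of the 35, with 0.39, 0.35, -0.05 and 0.22 (0.23 ± 0.09, 1.17-fold, limma adjusted p = 0.451). Bcl2l11 was above 0 on 7 of 8 arrays and below 0 in pair 3. Its other 3 probes had means of -0.0062, 0.05 and 0.13, and the median of the 4 probes was 0.09. The brightest probe thus gave a larger ratio than the rest. The probe at 0.05 is assigned to the same transcript as the brightest one, and those at -0.0062 and 0.13 share another. Bid encodes the BH3-only protein that caspase-8 cleaves to link death receptors to mitochondria. It was at -0.16, -0.14, 0.07 and -0.26 (-0.12 ± 0.07, limma adjusted p = 0.561), below 0 in 3 of 4 pairs. Bmf, a gene whose product is released from the cytoskeleton under stress, was at 0.03, -0.09, 0.11 and 0.16 on its brightest probe and at -0.05, -0.03, 0.02 and -0.21 on the other. The mean of Bmf was 0.23 on Cy5-mutant and -0.12 on Cy3-mutant arrays. Bad, Bik and Hrk had means of -0.02, 0.02 and -0.06 and were each split over the pairs. Bad, a target of survival kinases, was above 0 in pair 1 alone (0.17), and Hrk, which is known from neurons, was furthest from 0 in pair 2 (-0.22). Bik, like Bmf, differed by dye orientation, with 0.17 and -0.14.

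Downstream of the pore, 5 members encode proteins of the space between the mitochondrial membranes or of the mitochondrion, and 2 had a mean above 0 and 3 below. Cycs encodes somatic cytochrome c, the protein that starts apoptosome assembly. It was at -0.25, -0.06, 0.08 and 0.05 (mean -0.04 ± 0.07). Its other probe followed the same order of sign, with -0.36, -0.10, 0.09 and 0.13. Diablo and Htra2 encode antagonists of the IAPs that leave the mitochondrion with cytochrome c. Diablo was at -0.05, -0.24, -0.11 and 0.09 (-0.08 ± 0.07, limma adjusted p = 0.694). Its second probe was below 0 in pair 4 (-0.46), where the first was above. Htra2 was nearest to 0 of all members, at -0.0085, 0.04, -0.04 and 0.01, and its other probes had means of -0.01 and -0.12. Endog and Aifm1 encode a nuclease and an oxidoreductase linked to death without caspases. Endog was at -0.02, -0.11, 0.06 and -0.39 (-0.11 ± 0.08, limma adjusted p = 0.638) and at -0.02 without pair 4. Aifm1, on the X chromosome, was at -0.18, -0.02, 0.07 and 0.16, with a mean of 0.0052.

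The 6 caspases all had a mean above 0, where 53.9% of all genes did, with a median of 0.07. Casp6 and Casp8 were nearest to 0, at 0.0080 and 0.0040. Only 4 of 6 caspases were above 0 when each pair was centred on its own median, and 3 of 6 on the Cy5-mutant arrays. With any 1 pair left out 4 or 5 of 6 were. Without pair 1 the median was 0.13. Casp12 encodes a caspase of the endoplasmic reticulum and of the inflammatory group. Its log2 level was 8.22, 7.97, 7.70 and 7.62 in the wild-type RNAs and 8.46, 7.99, 7.96 and 7.99 in the mutant ones. The mutant RNA was the higher of each pair, by very little in pair 2, and the ranges overlapped, since wild-type RNAs 1 and 2 lay above the lowest mutant RNA. The ratios were 0.24, 0.02, 0.26 and 0.37, a mean of 0.22 ± 0.07 or 1.17-fold (limma adjusted p = 0.425), above 0 on 7 of 8 arrays. A second probe, which stood clear of background in 7 of 8 wild-type channels, was at 0.24, 0.18, 0.16 and 0.15. Both probes of Casp12 were thus above 0 in all 4 pairs. With Agilent's processed signals the mean was 0.39.

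Casp12, Birc2 and Birc3 were all higher in all 4 pairs and lie near each other on chromosome 9, so their upstream windows are shown together (GRCm38.p6, 5′ to 3′ on the strand of the gene, GC boxes in capitals). They are chr9:5345226-5345475 on the plus strand for Casp12, and chr9:7836807-7837056 and chr9:7873171-7873420 on the minus strand for Birc2 and Birc3.
Casp12: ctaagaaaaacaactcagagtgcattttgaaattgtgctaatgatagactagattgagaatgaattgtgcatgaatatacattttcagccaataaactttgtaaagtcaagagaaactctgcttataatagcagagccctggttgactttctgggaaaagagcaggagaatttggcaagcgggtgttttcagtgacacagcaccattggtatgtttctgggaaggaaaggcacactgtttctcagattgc
Birc2: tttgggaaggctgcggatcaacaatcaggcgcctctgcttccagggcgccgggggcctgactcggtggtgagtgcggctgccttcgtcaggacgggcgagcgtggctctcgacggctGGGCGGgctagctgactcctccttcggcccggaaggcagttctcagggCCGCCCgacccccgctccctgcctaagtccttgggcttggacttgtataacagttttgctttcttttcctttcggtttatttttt
Birc3: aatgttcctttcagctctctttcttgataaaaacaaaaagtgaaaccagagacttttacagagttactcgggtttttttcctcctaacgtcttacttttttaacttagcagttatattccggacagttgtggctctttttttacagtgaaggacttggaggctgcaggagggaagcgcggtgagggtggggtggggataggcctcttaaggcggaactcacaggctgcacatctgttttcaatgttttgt
The Birc2 window holds 2 GC boxes and those of Casp12 and Birc3 hold 0. The share of G and C was 61.2% in the Birc2 window, 39.2% in that of Casp12 and 43.6% in that of Birc3. Neither a p53 half-site nor an NF-kB site was found in these 3 windows. A second RefSeq start of Birc2 lies just upstream, and its window holds 0 GC boxes.

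Casp1 encodes the inflammatory caspase that matures interleukin-1 beta. It was at 0.06, -0.03, 0.33 and 0.43 (0.20 ± 0.09, limma adjusted p = 0.506), at 0.12 without pair 4 and at 0.34 with Agilent's processed signals. Casp1 was above 0 by most in pairs 3 and 4 and on 5 of 8 arrays. Casp9 encodes the initiator that the apoptosome activates. Its brightest probe was above 0 in every pair, at 0.0077, 0.07, 0.09 and 0.27 (0.11 ± 0.06, limma adjusted p = 0.576), and at 0.05 without pair 4. Its other probe was at 0.08, -0.06, -0.08 and -0.09, so the probes of Casp9 had opposite signs in pairs 2, 3 and 4. Casp2, Casp6 and Casp8 had means of 0.03, 0.0080 and 0.0040. Casp2, an initiator linked to DNA damage, ranged from -0.23 in pair 1 to 0.27 in pair 4. Casp6, an executioner, was at 0.09, 0.08, 0.04 and -0.19. Casp8, the initiator of the death receptor route, was at -0.04, 0.04, 0.17 and -0.15, but its sign followed the dye. Its mean was -0.12 on Cy5-mutant and 0.13 on Cy3-mutant arrays.

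All 3 IAP genes among the members had a mean above 0, where 53.9% of all genes did, with a median of 0.11. Only 2 of 3 did so without pair 4, on the Cy5-mutant arrays, and with the median of a gene's probes. Without pair 4 the median was 0.06. Outside the members, the IAP-related genes Birc5 and Birc6 had means of -0.03 and -0.02, and Naip2 had one of 0.13. Birc2 encodes cIAP1, a ubiquitin ligase of the tumour necrosis factor (TNF) receptor complex. Its log2 level was 10.03, 10.09, 10.08 and 10.18 in the wild-type RNAs and 10.16, 10.21, 10.21 and 10.35 in the mutant ones. The shift was small and nearly equal in the averages of the 4 pairs, and the highest wild-type RNA lay above the lowest mutant RNA. The ratios were 0.13, 0.13, 0.13 and 0.17, a mean of 0.14 ± 0.05 (limma adjusted p = 0.451), above 0 on 8 of 8 arrays. Single arrays ran from 0.04 to 0.24, a wider span than that of the pair averages. With median centring the mean of Birc2 was 0.28, while the median of all genes moved to 0.14 from 0.01. Birc3 encodes cIAP2, the close relative of cIAP1, and was at 0.07, 0.0040, 0.12 and 0.23 (0.11 ± 0.06, limma adjusted p = 0.566). Birc3 was at 0.06 without pair 4, and at 0.22 with Agilent's processed signals. Birc2 and Birc3 have 1 probe each. Xiap, on the X chromosome, encodes the IAP that binds active caspases directly. It was at -0.19, 0.03, -0.0027 and 0.46 on its brightest probe and at 0.20, -0.05, -0.30 and -0.45 on the other, so that its probes had opposite signs in pairs 1, 2 and 4. The mean of Xiap was 0.07 ± 0.11 with all pairs and -0.06 without pair 4.

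These 4 members of chromosome 9 stand in a row of genes that were mostly above 0. Casp1, Casp12, Birc2 and Birc3 are the 8th, 10th, 15th and 16th of the tested genes from the start of the chromosome in the RefSeq order. All 10 of the tested genes nearest to Casp12 had a mean above 0, from 0.04 to 0.28, and 4 of them were higher in all 4 pairs, where 53.9% and 12.1% of all genes were. The members Casp1 and Birc2 are among these 10. Of the 10 nearest to Birc2, which include some of the same genes and the members Casp12 and Birc3, 7 had a mean above 0 and 4 were higher in all 4 pairs. Among these neighbours Pdgfd, a growth factor gene picked out here only once its values were known, was at 0.33, 0.16, 0.30 and 0.34. Beyond Birc3 the run ended, with Yap1, picked out in the same way, at -0.12. The part of the shared position in these values was not tested.

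**Figure D3:**
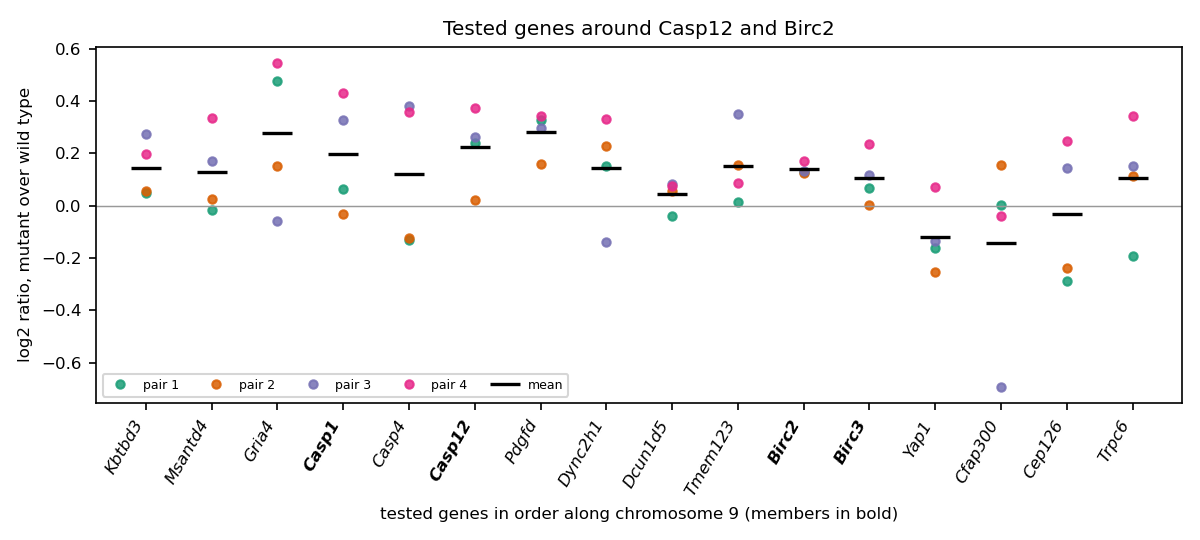
Log2 ratio of mutant over wild type (y axis) in each pair (coloured points) and on average (black bars) for the tested genes around Casp12 and Birc2, in their order along chromosome 9 (x axis, evenly spaced, members in bold). The means are above 0 from the left end to Birc3 and below 0 for the next 3 genes.

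The DNA fragmentation factor cuts chromatin late in apoptosis. Dffa encodes its inhibitor subunit, which caspases cleave, and Dffb the nuclease. Dffa was at 0.09, -0.08, 0.18 and 0.67 (0.21 ± 0.12, limma adjusted p = 0.566), and at 0.06 without pair 4. A second probe of Dffa was at 0.10, 0.05, 0.12 and -0.09, so the high value of pair 4 was seen with 1 of its 2 probes. Dffb was at -0.08, -0.13, 0.04 and -0.0091, with a mean of -0.05 ± 0.06.

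Of the 4 members of the death receptor complex, 3 had a mean above 0 and 1 below. Ripk1 encodes a kinase that steers the TNF receptor signal toward survival or death. It was at 0.05, 0.11, 0.15 and 0.0073 (0.08 ± 0.06, limma adjusted p = 0.620). Ripk1 was above 0 in every pair, but its mean was 0.0045 on Cy5-mutant and 0.16 on Cy3-mutant arrays, and its second probe was at -0.13 in pair 2. Cflar encodes c-FLIP, which blocks caspase-8. It was at 0.10, 0.03, -0.10 and 0.36 (0.09 ± 0.08, limma adjusted p = 0.691) and at 0.0069 without pair 4. Its other probes had means of -0.02, 0.08 and -0.04. The adaptor genes Fadd and Tradd had means of -0.05 and 0.01 and were each below 0 in pairs 2 and 4.

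The mitophagy receptors carry BH3-like domains and mark mitochondria for removal. Bnip3l encodes NIX, which clears mitochondria from maturing red cells. It was at 0.04, 0.06, 0.15 and 0.14 (0.10 ± 0.05, limma adjusted p = 0.561), above 0 on 8 of 8 arrays. A second probe was at 0.15, 0.12, 0.05 and -0.01. Bnip3l and Birc2 were the only members with 1 sign on all 8 arrays, which held for 4.65% of all genes. Red cell markers, of which 10 of 14 were measured and 9 of those were well above background in every channel, had list means of 0.23, -0.03, -0.20 and -0.07 in pairs 1 to 4. Their summed log2 level was 18.90 to 19.10 in wild type and 18.86 to 19.13 in the mutant. The part of red cells in the Bnip3l values was not tested. Bnip3, a gene induced by low oxygen, was at -0.02, -0.21, 0.05 and 0.21. The 16 genes of a hypoxia and glycolysis list had a median of -0.02, with 7 above 0 and 9 below.

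Bcl2l13 has a transmembrane anchor and BH domains and acts as a mitophagy receptor too. Its mean of -0.04 ± 0.06 joined opposite values of the dye orientations, -0.29 on Cy5-mutant and 0.21 on Cy3-mutant arrays. Bcl2l13 and Casp8 were the members for which all 4 arrays of one orientation lay on the other side of 0 from all 4 of the other. The share of all genes with this split is not given here, so it cannot be said whether it is unusual. In all, 19 of the 35 members had means of opposite sign in the dye orientations, while 51.3% of all genes did. Between the arrays of a pair the members differed by a median of 0.18, 0.17, 0.13 and 0.15 in pairs 1 to 4. Most of their means are smaller than that. Averaging over exchanged dyes cancels a dye effect that is the same on both arrays.

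**Figure D4:**
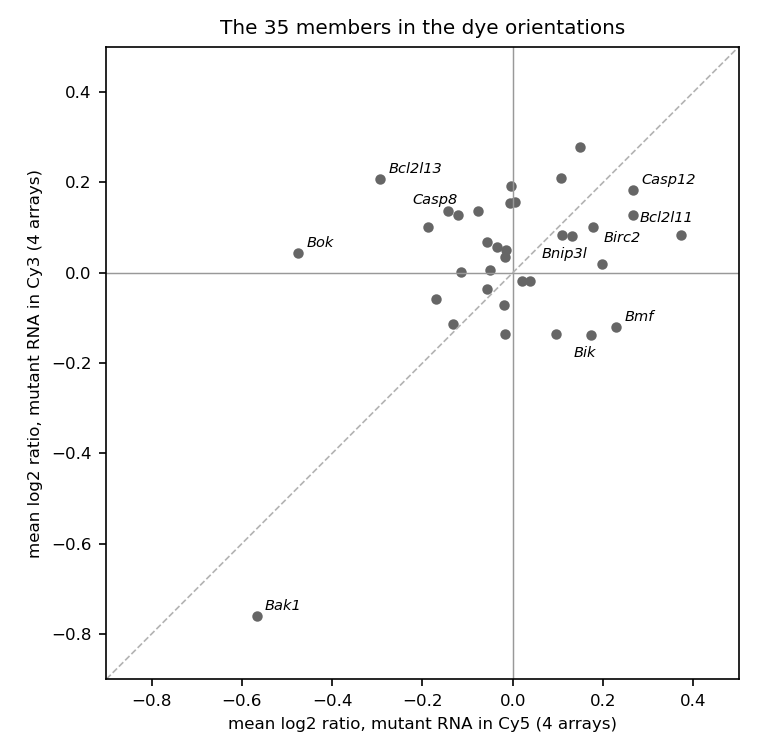
Mean log2 ratio of each member on the 4 Cy5-mutant arrays (x axis) against that on the 4 Cy3-mutant arrays (y axis), with the line of equal values dashed. Bak1 is low in both, Bok and Bcl2l13 are low on the Cy5-mutant arrays only, and 19 of the 35 points lie in the quadrants of opposite sign.

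Probes of a gene gave another view of this precision. The members had 59 probes, of which 58 were kept, and 19 members had a single probe. Of the 15 members with more than 1 kept probe, all means had the same sign for 9 and not for Bcl2l11, Bmf, Casp9, Cflar, Htra2 and Xiap. The second Hrk probe was the one not kept, since it was well above background in 0 mutant and 1 wild-type channels. Different probes can read different transcripts of a gene, but for Bmf, Casp9 and Htra2 the probes of a gene are assigned to the same transcript.

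Macrophages express Casp1 and other inflammatory members, so their markers are set beside the caspases and IAPs. All 14 macrophage markers were measured, well above background in every channel, and 14 had a mean above 0, with list means of 0.35, -0.01, 0.17 and 0.45 in pairs 1 to 4. Their summed log2 level was 13.39 to 13.66 in wild type and 13.57 to 14.06 in the mutant. The list medians were 0.44, 0.0026, 0.17 and 0.37, and Cd14 alone was at 1.71 in pair 4. The brightest probes of Casp1, Casp12 and Birc3 were lowest in pair 2, as this list was, but so were 12 of the 35 members in all, and the second Casp12 probe was lowest in pair 4. Of 10 stroma markers 10 had a mean above 0 as well, with list means of 0.26, 0.23, 0.15 and 0.33. The summed stroma level was 16.59 to 16.86 in wild type and 16.86 to 17.24 in the mutant. The part of these cells in the values of the members was not tested.

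Other genes of the pathway, outside the 35, give the setting. Of 15 p53 targets with a role in apoptosis 12 had a mean above 0, 9 were higher in all 4 pairs and 8 were higher at an unadjusted p under 0.05, with a median of 0.19 against 0.01 for all genes. None passed after adjustment. Those with the smallest p were Pmaip1, which encodes the BH3-only protein Noxa, at 1.22 ± 0.15, Perp at 1.55 ± 0.21, Apaf1, which encodes the scaffold of the apoptosome, at 0.37 ± 0.05, and the RNA-binding protein gene Zmat3 at 0.63 ± 0.12. Their limma adjusted p ran from 0.208 to 0.304. The lowest mean of the list was that of Bax, at -0.20. Apaf1 was at 0.42, 0.32, 0.33 and 0.40, above 0 on 8 of 8 arrays. Cycs and Casp9, whose products join the apoptosome with that of Apaf1, were at -0.04 and 0.11. These targets were listed with earlier results of the same arrays known, so their direction is no independent evidence.

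Of 37 further genes of the apoptosis machinery 33 were tested, and 15 had a mean above 0 and 18 below, with a median of -0.02. Without adjustment 0 were below a p of 0.05, and 2 were higher and 1 lower in all 4 pairs. The smallest p belonged to Vdac1, a channel gene of the outer mitochondrial membrane, at -0.13 ± 0.05, the co-chaperone gene Bag3 at 0.17 ± 0.08, the IAP-related sensor gene Naip2 at 0.13 ± 0.06 and the inflammasome gene Nlrp1a at -0.26 ± 0.14 (limma adjusted p from 0.470 to 0.539). Of 18 genes of TNF and NF-kB signalling, the route that Birc2, Birc3, Ripk1 and Tradd serve, 17 were tested. Their median was 0.05, and 0.01 without pair 4, with 11 above 0 and 6 below. Of 13 mitophagy and autophagy genes 8 were above 0 and 5 below, with a median of 0.01.

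**Figure D5:**
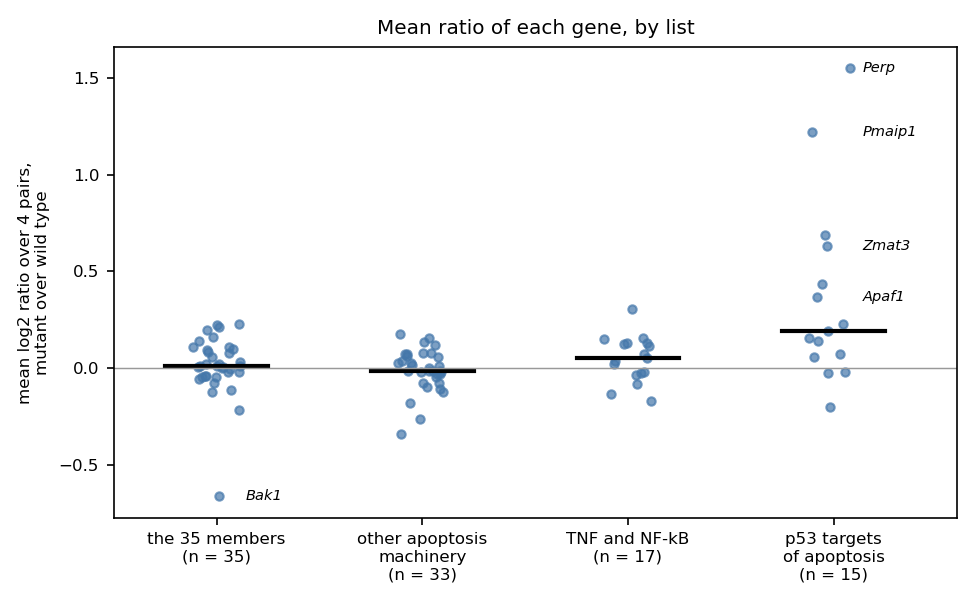
Mean log2 ratio of mutant over wild type over 4 pairs (y axis) of each gene (points, spread sideways for sight) in the 35 members, 33 other genes of the apoptosis machinery, 17 genes of TNF and NF-kB signalling and 15 p53 targets of apoptosis (x axis), with the median of each list as a black bar. The medians are 0.01, -0.02, 0.05 and 0.19, and Perp and Pmaip1 lie highest, at 1.55 and 1.22.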

How the data were processed

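Per the labels, total RNA of whole kidneys was turned into Cy3- or Cy5-labelled cRNA and hybridised as 4 wild-type and mutant pairs on 8 arrays. The scanner files hold, per the file headers, deposited intensities, as the median over the pixels of a spot and over its background. The series table holds the authors' log10 ratios of Cy5 over Cy3, deposited without turning them for the dye swap, and differed from the scanner files by at most 0.005. The file headers name Agilent Feature Extraction 10.7.3.1 and the submitters' processing notes 8.5.1.1. The number of arrays limits the precision. Dye orientation went together with position on the slide.

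Background was corrected with normexp (offset 50) on the median signals, which replaced the mean signals the plan preferred because the files hold medians. Arrays were normalised by loess in limma 3.58.1 (R 4.3.3), with 3671 control spots and 95 to 156 outlier spots per array at weight 0 and then left out. Ratios were set as mutant over wild type on all arrays, spots of a probe and then the 2 arrays of a pair were averaged, and a probe was kept if well above background in at least 6 of 8 channels of a genotype (34594 of 56605). Probes were named through RefSeq accessions of GRCm38.p6 (58.3% of them), and the brightest kept probe stood for a gene. Per-RNA levels are log2 intensities after loess and Aquantile scaling, averaged over the 2 dyes. Ratios were tested against 0 with lmFit and eBayes, two-sided, with Benjamini-Hochberg adjustment over 16013 genes and a threshold of 0.05. The procedure was tried on simulated data with larger differences than those of most members. Such a run does not show how well it finds smaller ones. Arrays of the same pair number deviated together (r = 0.66, 0.627, 0.862 and 0.77), since they hold the same RNAs per the labels.

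The members, the gene lists and the tests were chosen with earlier results of these data known. The text gives values per pair for each member with 1 sign in all 4 pairs, the 12 smallest p, the 3 widest ranges and each whose probes differ in sign. Outside the members it names the 4 smallest p of the p53 target and machinery lists. It also names Bax, Birc5 and Birc6, relatives of members that stand in these lists. Alternatives covered normalisation, background, dim probes, choice of probe, dye orientation, centring, sex difference, the pair as a block and each pair left out. Promoter windows, from RefSeq, hold the 250 bases before each start.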

Additional observations from a re-analysis of the deposited data

Results flagged for a closer look

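Bcl2l13 and Casp8 had opposite signs in the dye orientations on every array. The mean of Bcl2l13 was -0.294 on the 4 Cy5-mutant arrays, all below 0, and 0.21 on the 4 Cy3-mutant arrays, all above 0. The mean of Casp8 was -0.12 on the former, all below 0, and 0.13 on the latter, all above 0. The difference between the orientations was not tested, and the share of all genes with such a split is not given here. The gap of Bak1 between pair 4 and the other pairs was below the critical value of Dixon's test for 4 values.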

How the results depend on the processing

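In none of the 17 alternatives did a member pass limma's adjusted threshold. The number of genes passing rose from 0 to 42, all higher, with median centring in place of loess, to 39, of which 38 were higher, with all 8 arrays in 1 fit that had a dye term and took the pair as replicate block (consensus correlation 0.586), and to 1 with the sex difference as a covariate. It was 0 in the others. The block changed no call of a member. With median centring the median of the members was 0.173, where that of all genes was 0.135, and the smallest adjusted p of a member, that of Bcl2l11, was 0.0868 (up to 0.762 over its alternatives). The number of members with 1 sign in all pairs, 7, was 13 with median centring (32.9% of all genes) and 13 on Cy5-mutant arrays (31% of all genes). It ran from 10 to 14 without replicate 1, 2, 3 or 4, where only 3 pairs need agree and 28.5% to 37.9% of all genes did. Bok was at 0.0434 on Cy3-mutant arrays and was the only one of these 7 to turn its sign. Of the 35 members 11 kept their sign in all 16 alternatives that give it, and 24 changed it in at least 1. Every member was well above background in all channels, but with Agilent's processed signals Birc3 went from 0.106 to 0.224, Casp12 from 0.224 to 0.393 and Casp1 from 0.197 to 0.336, all dim probes. The number of pairs and single probes limit the other values.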
